A study of Mus musculus with 22 samples.

Results

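The ventral forebrain interneuron transcription factors are 9 named genes, Nkx2-1, Lhx6, Lhx8, Dlx1, Dlx2, Dlx5, Dlx6, Sp8 and Sp9, found on the arrays by the gene name that the scanner files give each probe, or by an older name (Titf1 for Nkx2-1). Of the 9 genes, 8 had a probe, and 10 of the 41174 probes on the array belonged to them. Sp9 had no probe under this rule and is not analysed here. The samples were whole mouse brains of 4 groups: 4 postnatal day 1 (P1) brains labelled knockout, 4 P1 control brains, 8 embryonic day 15 (E15) brains labelled AGTR2 knockout and 6 E15 control brains. The P1 titles do not name the gene, and the knockout is taken here to be the same at both ages. The whole brains were frozen and sliced before RNA was extracted. AGTR2 (mouse gene Agtr2) is the type 2 angiotensin II receptor. The labels give no strain, sex, allele or litter, and name the reference brains only as controls. Each of the 22 two-colour arrays held 1 knockout and 1 control brain, 8 arrays at P1 and 14 at E15, and all but 2 E15 knockout brains were measured again with the dyes exchanged.

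These genes encode DNA-binding proteins of the ganglionic eminences, the ventral swellings of the embryonic forebrain from which cortical and striatal interneurons migrate. Nkx2-1 sets the identity of the medial eminence and acts upstream of Lhx6 and Lhx8, whereas the Dlx genes are used throughout the eminences and Sp8 and Sp9 mainly in the lateral and caudal eminences and in interneurons bound for the olfactory bulb. In a whole-brain extract, levels of such genes depend on how much tissue using them was sampled and how much RNA each cell made. Fewer cells and less RNA per cell cannot be told apart here.

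Nkx2-1, Lhx8, Dlx1 and Dlx2 are shown by the sequence before their listed starts because they varied together between animals (Pearson's r of 0.85 to 0.94 between pairs) and have 1 listed start each. Each line gives the 250 bases before the start, 5′ to 3′ on the gene's strand, from the RefSeq promoter table of GRCm38.p6, at chr12:56536909-56537158 on the minus strand for Nkx2-1, chr3:154330561-154330810 on the minus strand for Lhx8, chr2:71529195-71529444 on the plus strand for Dlx1 and chr2:71546755-71547004 on the minus strand for Dlx2. Capitals mark any match, on either strand, to TAATTA (a homeodomain core of the kind that DLX and LHX proteins bind), CAAGTG (the core bound by NKX2-1) or GGGCGG (the GC box bound by SP proteins).
Nkx2-1: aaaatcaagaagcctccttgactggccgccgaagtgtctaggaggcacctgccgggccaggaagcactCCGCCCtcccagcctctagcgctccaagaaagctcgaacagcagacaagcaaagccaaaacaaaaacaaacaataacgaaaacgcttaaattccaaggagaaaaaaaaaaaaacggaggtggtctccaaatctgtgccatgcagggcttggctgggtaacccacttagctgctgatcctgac
Lhx8: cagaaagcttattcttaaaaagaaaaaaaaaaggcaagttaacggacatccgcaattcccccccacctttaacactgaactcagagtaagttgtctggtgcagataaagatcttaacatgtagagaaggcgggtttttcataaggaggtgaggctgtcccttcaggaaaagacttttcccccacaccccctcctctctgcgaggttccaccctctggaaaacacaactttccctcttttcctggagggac
Dlx1: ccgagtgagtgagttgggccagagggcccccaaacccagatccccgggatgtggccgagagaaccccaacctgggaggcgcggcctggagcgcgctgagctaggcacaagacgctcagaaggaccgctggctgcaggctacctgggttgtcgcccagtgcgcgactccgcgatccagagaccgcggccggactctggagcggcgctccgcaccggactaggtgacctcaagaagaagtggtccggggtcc
Dlx2: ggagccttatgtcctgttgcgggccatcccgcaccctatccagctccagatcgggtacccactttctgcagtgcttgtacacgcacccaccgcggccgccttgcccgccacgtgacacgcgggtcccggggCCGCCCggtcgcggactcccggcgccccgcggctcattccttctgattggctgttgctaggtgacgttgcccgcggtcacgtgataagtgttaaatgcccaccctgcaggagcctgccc
The GC box occurred 1 time in the Dlx2 window and 1 time in the Nkx2-1 window, and 32.7% of the 32851 listed promoter windows of the same length held it. TAATTA (4.84% of windows) and CAAGTG (11.6% of windows) had no match in these 4 windows, which says only that these letters are not in the windows. GC content was 50.8% for Nkx2-1, 46.0% for Lhx8, 68.0% for Dlx1 and 66.4% for Dlx2. Lhx6 and Sp8 have 3 listed starts each, Sp9 has 1, and Dlx5 and Dlx6 are named only. In the same assembly Dlx1 and Dlx2 lie 9426 bases apart on chromosome 2, and Dlx6 and Dlx5 lie 9830 bases apart on chromosome 6.

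Each array's median spot signal ran between 68.8 and 118 intensity units at P1 and between 75.7 and 134 at E15, and 71.3% to 89.5% of spots at P1 and 74.9% to 89.3% at E15 stood well above background. The scanner software marked 287 to 3343 spots per array as outliers at P1 and 52 to 381 at E15. All P1 arrays were scanned on 1 day with one software version, and the E15 arrays on 3 other days with an earlier version, so age, scan day and software cannot be told apart. The Agtr2 probe gave log2 knockout over control of 0.22, 0.29, -0.13 and 0.07 in the P1 replicates, and between -2.10 and 0.87 in the 8 E15 replicates. It did not separate the knockout brains from the controls at either age (limma, adjusted p = 0.723 at P1 and 0.799 at E15), and which part of the gene the knockout removes is not given in the sources used here, so this probe does not check the labels. The neuron markers Tubb3, Map2, Snap25, Stmn2 and Dcx were well above background in all channels. In 2 E15 brains the skeletal muscle list stood apart, at a mean log2 signal of 10.45 in knockout 8 and 11.74 in control 1, against 6.83 to 8.78 in the other 7 E15 knockouts and 6.72 to 8.68 in the other 5 E15 controls. The same 2 brains had the highest meninges and fibroblast levels, 10.51 and 10.19, and the highest face, bone and cartilage levels, 7.96 and 7.64. Values without 1 or more of these brains are given for several results.

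The labels number the E15 controls and the knockouts but not the P1 controls, so a P1 control value given here is the average of the control channels on the 2 arrays of the knockout with that number, called control average 1 to 4. These averages may each mix 2 brains. Over bright features, the deviations of a P1 knockout from the mean of its orientation correlated between its own arrays at 0.54, 0.36, 0.27 and 0.35 for knockouts 1 to 4, whereas those of the control channels on the same arrays correlated at -0.22, 0.13, 0.06 and 0.04. For Lhx8 the control channel read 8.48 with knockout 1 in Cy5 and 6.21 with knockout 1 in Cy3, and 6.03 with knockout 2 in Cy5 and 7.75 with knockout 2 in Cy3. The mean over the 8 control channels does not depend on how they are averaged, apart from spots left out, but the spread and the tests do. Each control result is therefore also given, where the call or the overlap differs, with the channels averaged by the pairing whose correlations had the highest sum, a setting chosen after seeing the data that takes the control with knockout 1 in Cy5 together with that of knockout 2 in Cy3, 2 with 3, 3 with 4 and 4 with 1. It was not tested that these are the same brains.

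The first comparison asked how the level of each gene in control brains differed between P1 and E15. Levels are log2 signals after background correction, with the arrays of an animal, or of a P1 control average, averaged, and a gene was called changed where limma's test across all features gave a Benjamini-Hochberg adjusted p under 0.05. Of the 8 measured genes 5 fell (Nkx2-1, Lhx6, Lhx8, Dlx2 and Dlx5), 2 rose (Dlx6 and Sp8) and Dlx1 did not pass. Across all 25395 features tested, 38.2% were called, 22.7% lower and 15.5% higher at P1. The median change was -0.84 over the 8 genes and -0.07 over all features.

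**Figure D1:**
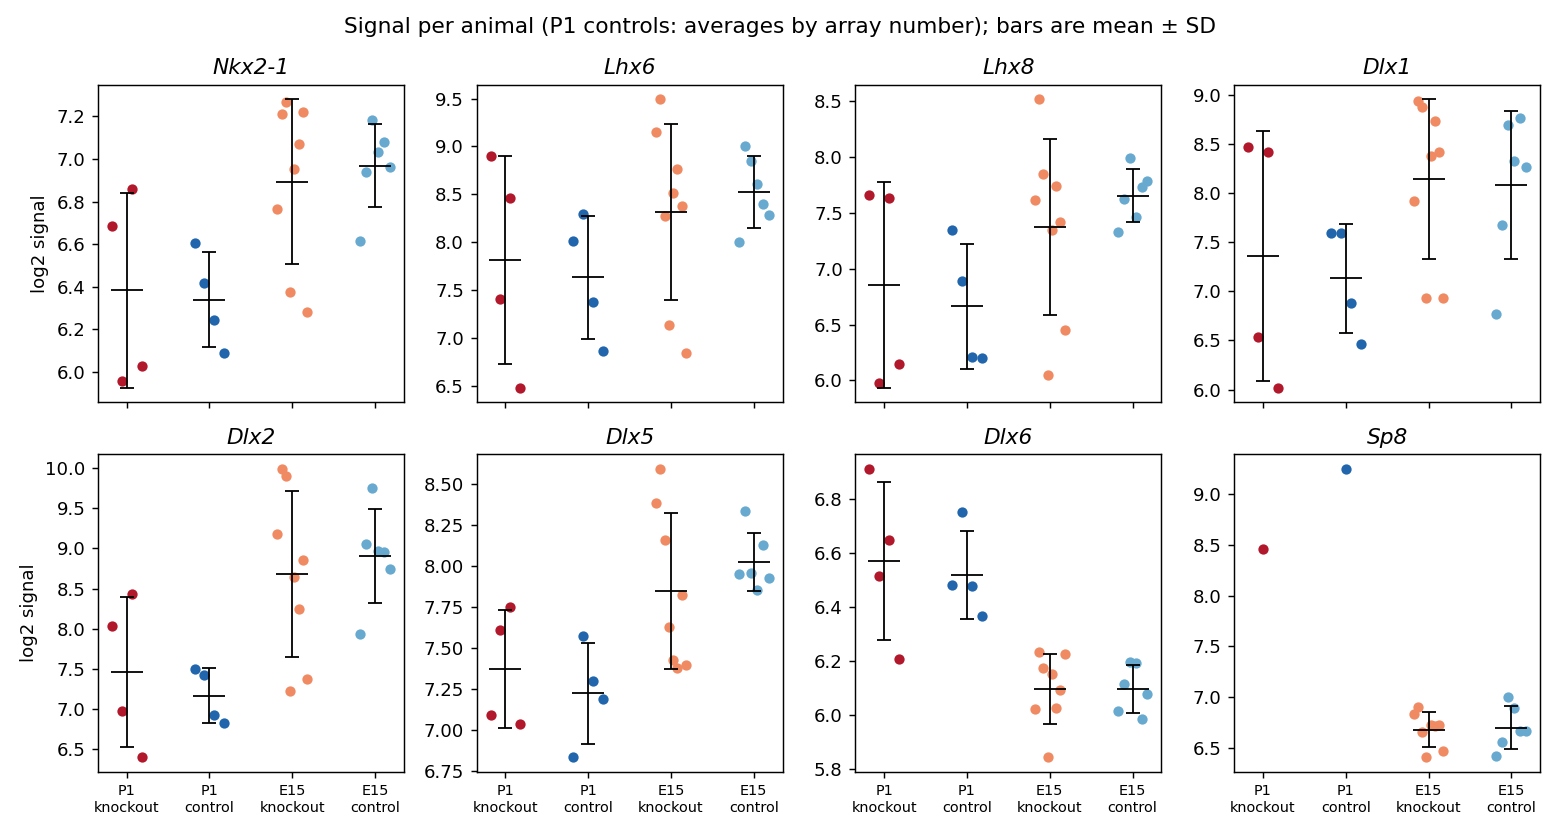
Log2 signal of each gene (vertical axis, a scale of its own per panel) in P1 knockout, P1 control, E15 knockout and E15 control brains; points are animals (for P1 controls, control averages) and bars the mean ± SD. The group means of Dlx6 are higher at P1 than at E15, those of the other genes but Sp8 are lower, and Sp8 has 1 P1 animal per genotype.

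Among the medial eminence genes, Nkx2-1, which specifies that region and is also used in thyroid and lung, had log2 signals of 6.60, 6.42, 6.25 and 6.09 in the 4 P1 control averages, against a lowest of 6.62, a median of 7.00 and a highest of 7.18 in the 6 E15 controls. The ages did not overlap, but the highest P1 and the lowest E15 value lay close together. With the P1 channels paired by likeness the P1 values were 6.93, 6.09, 6.21 and 6.13, and the highest lay within the E15 range (adjusted p = 0.0138). Nkx2-1 fell by 0.63 ± 0.12 on the log2 scale (SE, n = 10, from 4 P1 control averages and 6 E15 controls, adjusted p = 0.00274). A list of thyroid and lung genes averaged between 6.14 and 6.44 log2 units in every animal, near the low end of the scale. Within the brain, a list of 12 hypothalamus genes averaged between 6.26 and 7.01. Its median control change over the 11 genes tested was -0.06, against -0.07 over all features. The part of regions other than the medial eminence in the Nkx2-1 signal was not tested.

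Lhx6, the LIM homeodomain factor that interneurons of the medial eminence need to migrate and mature, had log2 signals of 8.01, 8.29, 7.37 and 6.87 in the P1 controls and a lowest, median and highest of 8.00, 8.50 and 9.01 in the E15 controls. Control averages 1 and 2 at P1 lay within the E15 range and 3 and 4 below it. Lhx6 fell by 0.89 ± 0.28 (SE, n = 10, adjusted p = 0.0275), a call that was lost without P1 control average 3 or 4 or without E15 control 2 or 3 (adjusted p = 0.0512 to 0.0836). It was also lost with the P1 channels paired by likeness (8.82, 7.49, 7.26 and 6.97 at P1, adjusted p = 0.0546) and in the Cy5 channels alone (-0.64, adjusted p = 0.2). Its dimmer probe did not show this difference: that probe averaged 6.57 ± 0.24 in P1 controls and 6.52 ± 0.16 in E15 controls (SD, n = 4 and 6).

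Lhx8, which directs cholinergic neurons of the basal forebrain, had log2 signals of 7.35, 6.89, 6.21 and 6.20 in the P1 controls, against 7.33, 7.68 and 7.99 as lowest, median and highest in the E15 controls. P1 control average 1 just reached the E15 range and the others lay below it. Lhx8 fell by 0.99 ± 0.22 (SE, n = 10, adjusted p = 0.00561), 1.98-fold. Only 5 of the 8 P1 control channels were well above background for this probe, so its P1 level is near the limit of measurement. With the P1 channels paired by likeness the P1 values were 8.12, 6.10, 6.34 and 6.09, the first above every E15 control, and the adjusted p was 0.0478. In the Cy3 channels alone the fall did not pass (adjusted p = 0.0993). A dimmer probe for Lhx8 fell by 0.33 in the mean, 6.13 ± 0.10 in P1 controls and 6.46 ± 0.10 in E15 controls (SD, n = 4 and 6).

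Of the Dlx genes, Dlx2, used in eminence progenitors and needed together with Dlx1 for interneurons to leave the eminence, had log2 signals of 7.49, 7.42, 6.92 and 6.82 in the P1 controls and a lowest, median and highest of 7.93, 8.96 and 9.76 in the E15 controls. The ages did not overlap. Dlx2 fell by 1.74 ± 0.29 (SE, n = 10, adjusted p = 0.00101), 3.34-fold with a 95% interval of 0.193 to 0.465 for P1 over E15.

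Dlx1, its neighbour on chromosome 2, had log2 signals of 7.59, 7.59, 6.88 and 6.47 in the P1 controls and a lowest, median and highest of 6.77, 8.29 and 8.76 in the E15 controls. All but 1 of the E15 controls lay above every P1 control average, and the exception was E15 control 1, the brain with the highest muscle list. The change of -0.95 ± 0.38 (SE, n = 10) had an adjusted p of 0.0742. Without E15 control 1 it was -1.21 with an adjusted p of 0.00692, and without E15 controls 1 and 2 it was -1.38 with an adjusted p of 0.00246, a setting chosen after seeing the data. These were the lowest E15 controls for Dlx1 (6.77 and 7.67), so leaving them out enlarges the fall by construction. The p-values without them therefore add no support for a fall. With all animals, the change of Dlx1 passed with the scanner's processed signals (-1.53, adjusted p = 0.0222) and in the Cy3 channels alone (-1.35, adjusted p = 0.0443), and not in the Cy5 channels alone (-0.52, adjusted p = 0.398). With the P1 channels paired by likeness the P1 values were 8.29, 6.92, 6.79 and 6.54, the first above more than 1 of the E15 controls, and the adjusted p was 0.107.

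Dlx5, which in the mouse eminences lies downstream of Dlx1 and Dlx2, had log2 signals of 6.83, 7.57, 7.30 and 7.19 in the P1 controls and a lowest, median and highest of 7.85, 7.95 and 8.33 in the E15 controls. The ages did not overlap, and Dlx5 fell by 0.80 ± 0.14 (SE, n = 10, adjusted p = 0.00135), 1.74-fold. Its neighbour Dlx6 went the other way: it had 6.48, 6.75, 6.48 and 6.36 in the P1 controls and 5.98, 6.10 and 6.20 as lowest, median and highest in the E15 controls, and rose by 0.42 ± 0.08 (SE, n = 10, adjusted p = 0.00279). The ages did not overlap for Dlx6 either, but its signal was dim, with 11 of 14 E15 control channels and all 8 P1 control channels well above background. The rise of Dlx6 was in the Cy5 channels (0.81, adjusted p = 0.00501) and did not pass in the Cy3 channels (0.12, adjusted p = 0.395); both settings were chosen after seeing the data. With the P1 channels paired by likeness the P1 values were 6.91, 6.41, 6.46 and 6.10, the last within the E15 range, and the adjusted p was 0.0418.

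Sp8, a zinc finger factor of lateral and caudal eminence interneurons, could be read at P1 on 1 array only, because 7 of its 8 P1 spots were marked as outliers and left out. Its log2 signal was 9.25 in the control channel of the array left, against a lowest of 6.42, a median of 6.67 and a highest of 7.00 in the 6 E15 controls. The fitted rise of 2.55 ± 0.21 (SE, n = 7, adjusted p = 7.98e-05) holds no spread between P1 animals. With the marked spots kept, the 4 P1 control averages had 8.07, 8.17, 8.31 and 8.62, all above the E15 controls, and the rise was 1.59. Of all 28689 features, 309 were marked on at least 7 of the 8 P1 arrays, and 302 of those on no E15 array. Among the 281 of these that were tested, 279 were called higher at P1 and 0 lower, with a median change of 2.84, so the rise of Sp8 shares its direction with nearly all features marked in this way; the part of the marking in it was not tested.

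Knockout brains, on the other channel of the same arrays, had the same sign of age change for each of the 8 genes. Only Dlx6 and Sp8 were called, both higher, where 28.5% of the 25395 features were called, 13.1% higher. Dlx2 had log2 signals of 8.03, 6.98, 8.43 and 6.39 in the P1 knockouts, against a lowest of 7.22, a median of 8.75 and a highest of 9.99 in the 8 E15 knockouts. Knockouts 2 and 4 at P1 lay below the E15 range and knockouts 1 and 3 within it, and the change was -1.22 ± 0.55 (SE, n = 12, adjusted p = 0.118). Nkx2-1 had 6.69, 5.96, 6.86 and 6.03 in the P1 knockouts and 6.28, 7.01 and 7.27 as lowest, median and highest in the E15 knockouts, and its change was -0.51 ± 0.23 (SE, n = 12, adjusted p = 0.113). The same 2 P1 knockouts, 2 and 4, lay below the E15 range. For Lhx6 (-0.51), Lhx8 (-0.52), Dlx1 (-0.78) and Dlx5 (-0.48) the adjusted p was 0.17 to 0.504.

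**Figure D2:**
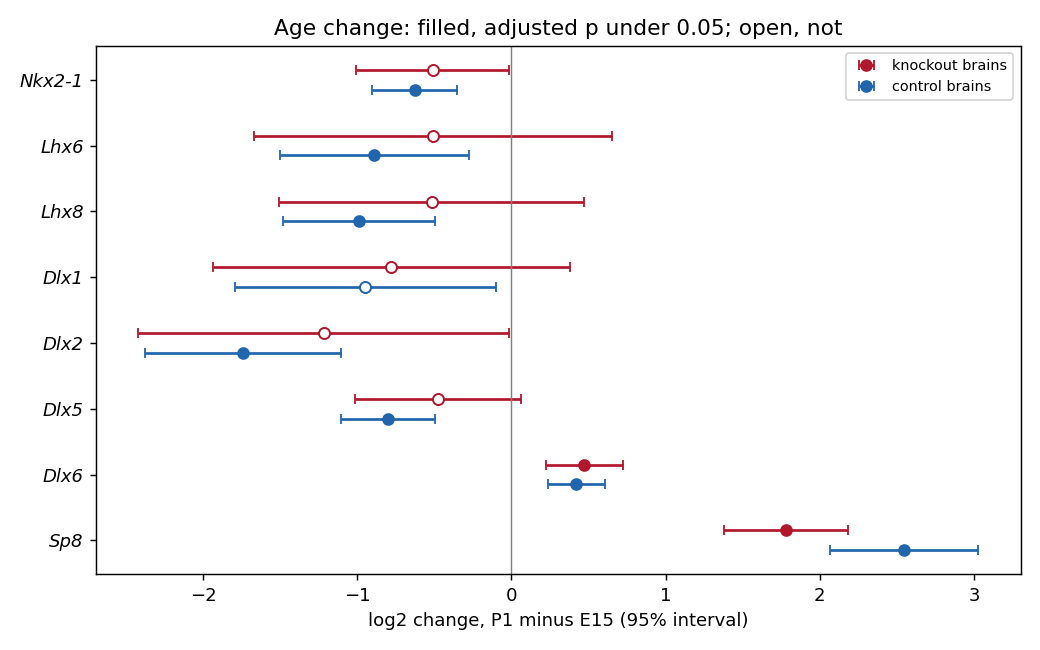
Log2 change from E15 to P1 (horizontal axis, P1 minus E15) for each gene in knockout brains (red, upper of each pair) and control brains (blue), with 95% intervals; filled points have an adjusted p under 0.05. The estimates of both genotypes lie on the same side of 0 for all 8 genes, and the Sp8 intervals rest on 1 P1 animal per genotype.

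Dlx6 had 6.91, 6.51, 6.65 and 6.21 in the P1 knockouts and 5.84, 6.12 and 6.23 as lowest, median and highest in the E15 knockouts. P1 knockout 4 lay within the E15 range and the other 3 above it, and Dlx6 rose by 0.47 ± 0.12 (SE, n = 12, adjusted p = 0.0093). E15 knockouts 4 and 8 had the lowest log2 signals of their group for Nkx2-1 (6.38 and 6.28), Lhx6 (7.13 and 6.84), Lhx8 (6.05 and 6.46) and Dlx2 (7.22 and 7.38). Without these 2 brains, a setting chosen after seeing the data, Dlx2 (-1.68, adjusted p = 0.0179) and Nkx2-1 (-0.70, adjusted p = 0.0176) passed in the knockouts. That setting removes the lowest E15 values of both genes, which enlarges their fall by construction. These 2 p-values therefore add no support for a fall. The difference between the genotypes in their age change is tested further on, through the knockout over control ratios.

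The sizes of these changes depend on how the background was treated. An offset of 50 intensity units was added before the logarithm, and with the scanner's own processed signals, which have no such offset, the control changes were -1.76 for Nkx2-1, -2.62 for Lhx8, -1.53 for Dlx1, -2.39 for Dlx2 and 1.36 for Dlx6. Dlx2 fell most with the offset and Lhx8 most without it.

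The second question was whether knockout brains differed from the control brains on the same arrays. At P1, 0 of the 7 genes with more than 1 measured replicate passed, and 0 of all 24477 features did (limma, 0% called; 2294 features, 9.37%, had an unadjusted p under 0.05). Knockout over control was higher in replicates 1 and 3 and lower in replicates 2 and 4, so the replicate means were near 0 while single replicates were not. Each ratio averages both arrays of a knockout, and since the P1 control brains are not numbered, the controls of a replicate may differ between its arrays and be shared with another replicate. Taken by orientation, which averages no arrays, 0 of the 7 genes passed with the knockout in Cy5 or in Cy3 (adjusted p 0.363 to 0.997). All 7 measured genes were above 0 in replicates 1 and 3, 6 of 7 were below 0 in replicate 2, and all 8 were below 0 in replicate 4.

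Dlx1 had a log2 knockout over control of 0.88, -1.06, 1.53 and -0.45 in P1 replicates 1 to 4, a mean of 0.23 with a 95% interval of -0.95 to 1.40 (adjusted p = 0.915). Dlx2 had 0.54, -0.44, 1.51 and -0.42 (interval -0.62 to 1.22, adjusted p = 0.839). Replicate 3 was the highest and replicate 2 the lowest for both genes. Lhx6 had 0.89, -0.89, 1.09 and -0.39 (interval -0.78 to 1.13), and its dimmer probe only -0.22, -0.03, -0.06 and -0.03. Lhx8 had 0.31, -0.91, 1.42 and -0.06 (interval -0.77 to 1.15), and its dimmer probe -0.17, -0.23, 0.26 and -0.04. Nkx2-1 had 0.08, -0.46, 0.61 and -0.06 (interval -0.41 to 0.49). The spread was smaller for Dlx5, with 0.26, 0.03, 0.45 and -0.15 (interval -0.13 to 0.42), and for Dlx6, with 0.43, -0.23, 0.17 and -0.16 (interval -0.26 to 0.37). Sp8 had 1 value, -0.79 in replicate 4, and no test.

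**Figure D3:**
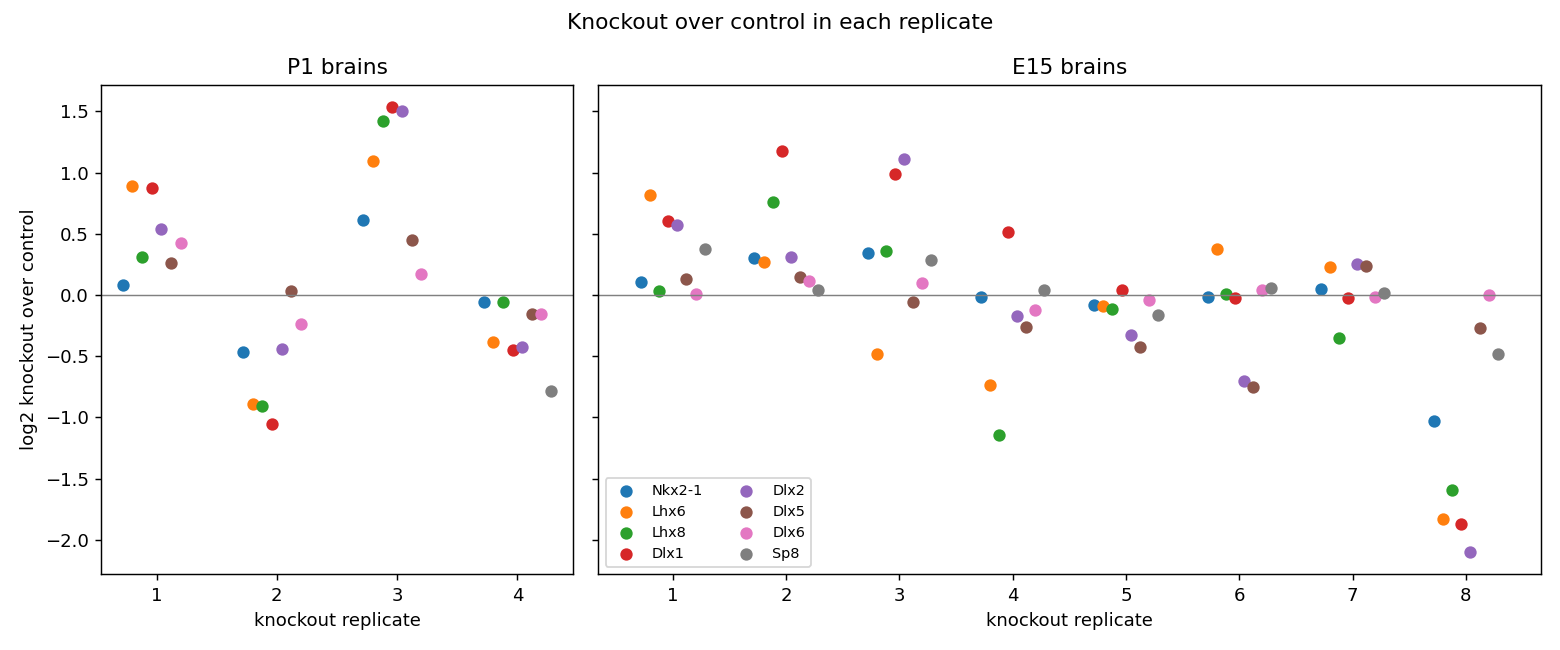
Log2 knockout over control (vertical axis) of each gene in each knockout replicate (horizontal axis) at P1 and E15, 1 colour per gene. P1 replicates 1 and 3 lie above 0 and replicate 4 below it, and E15 replicate 8 reaches -2.10 for Dlx2.

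At E15, 0 of the 8 genes passed, and 0 of all 24029 features did (limma with a block of shared controls, 0% called; 1571 features, 6.54%, had an unadjusted p under 0.05). All 8 genes were above 0 in replicates 1 and 2 and all 8 below 0 in replicate 8. In replicate 1 the arrays differed in both control brain and dye, and only 2 of 8 genes kept their sign between them. Against E15 control 1, the brain with the highest muscle list, Dlx1 read 1.56, Dlx2 1.66 and Lhx6 1.07. Against E15 control 6 they read -0.35, -0.52 and 0.57. Dlx1 ran from -1.87 to 1.18 over the 8 replicates with a median of 0.28, and Dlx2 from -2.10 to 1.11 with a median of 0.04. Both lowest values were those of replicate 8, and the other 7 replicates of Dlx1 lay between -0.02 and 1.18. Lhx6 ran from -1.83 to 0.82 (median 0.07), Lhx8 from -1.59 to 0.76 (median -0.05) and Nkx2-1 from -1.03 to 0.34 (median 0.02), again lowest in replicate 8. The dimmer probes read only -0.04 for Lhx6 and -0.28 for Lhx8 in that replicate. Dlx5 ran from -0.75 to 0.24 (median -0.16) with its lowest value in replicate 6, Dlx6 from -0.12 to 0.12 (median 0.00) and Sp8 from -0.48 to 0.38 (median 0.04).

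The fitted E15 means were 0.17 for Dlx1 (95% interval -0.55 to 0.90), -0.14 for Dlx2 (-0.88 to 0.60), -0.17 for Lhx6 (-0.80 to 0.45), -0.25 for Lhx8 (-0.84 to 0.34) and -0.04 for Nkx2-1 (-0.37 to 0.29), with adjusted p between 0.765 and 0.971 over the 8 genes. The intervals of Dlx1, Dlx2, Lhx6 and Lhx8 are wide enough to hold differences of more than 0.5 in size on the log2 scale. Those of Dlx6 (-0.07 to 0.08) and Sp8 (-0.19 to 0.22) are narrow. Without replicate 8 the means were 0.46 for Dlx1, 0.13 for Dlx2, 0.06 for Lhx6, 0.10 for Nkx2-1 and -0.05 for Lhx8. The signs of Dlx2, Lhx6 and Nkx2-1, and most of the size for Lhx8, rest on 1 brain pair. The replicates scanned on day 3 (1 to 4) gave 0.46 for Dlx2 and 0.18 for Nkx2-1, and those scanned on days 1 and 2 (5 to 8) gave -0.47 for Dlx1.

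The difference between the knockout effect at P1 and that at E15 was fitted on the knockout over control ratios. It asks how the genotypes differ in their age change, but those changes came from animal levels, so the sizes need not match. This difference was called for 86 of 23450 features (0.367%, with 0.337% lower and 0.0299% higher) and for 0 of the 8 genes (limma, adjusted p 0.884 to 0.994 without Sp8). Sp8 had an unadjusted p of 0.0139, from 1 P1 value. It was 0.44 for Dlx2 (95% interval -0.78 to 1.67), 0.44 for Lhx8 (-0.63 to 1.50), 0.34 for Lhx6 (-0.76 to 1.44), 0.32 for Dlx5 (-0.08 to 0.72) and 0.06 for Dlx1 (-1.25 to 1.36). For these 5 genes the data allow differences in either direction. Without E15 replicate 8 the value for Dlx1 was -0.23, and without P1 replicate 3 it was -0.38.

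The dye orientations of 1 replicate did not always give the same ratio. At P1 both held the same knockout, by the labels, but not certainly the same control. In P1 replicate 1, Dlx1 read -0.22 with the knockout in Cy5 and 1.98 with the knockout in Cy3, Lhx8 read -0.93 and 1.55, and Lhx6 read -0.04 and 1.82; 0 of the 5 genes with both orientations kept their sign. In P1 replicate 2, Lhx6 read 0.14 and -1.93 and Lhx8 read 0.10 and -1.92, and 2 of 7 genes kept their sign. The orientations were closer in replicate 3, where Dlx2 read 1.49 and 1.52 and 6 of 7 genes kept their sign, and in replicate 4 all 7 genes with both orientations kept it. At E15, replicate 8 was low in both orientations (Dlx2 -2.19 and -2.01, Dlx1 -2.26 and -1.49), with 7 of 8 genes of 1 sign. Across all bright genes the correlation between orientations ran from -0.26 to 0.33 in the P1 replicates and from -0.19 to 0.69 at E15, with the lowest P1 value in replicate 2 and the highest E15 value in replicate 8. In E15 replicates 1 and 2 the orientations also used different control brains.

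**Figure D4:**
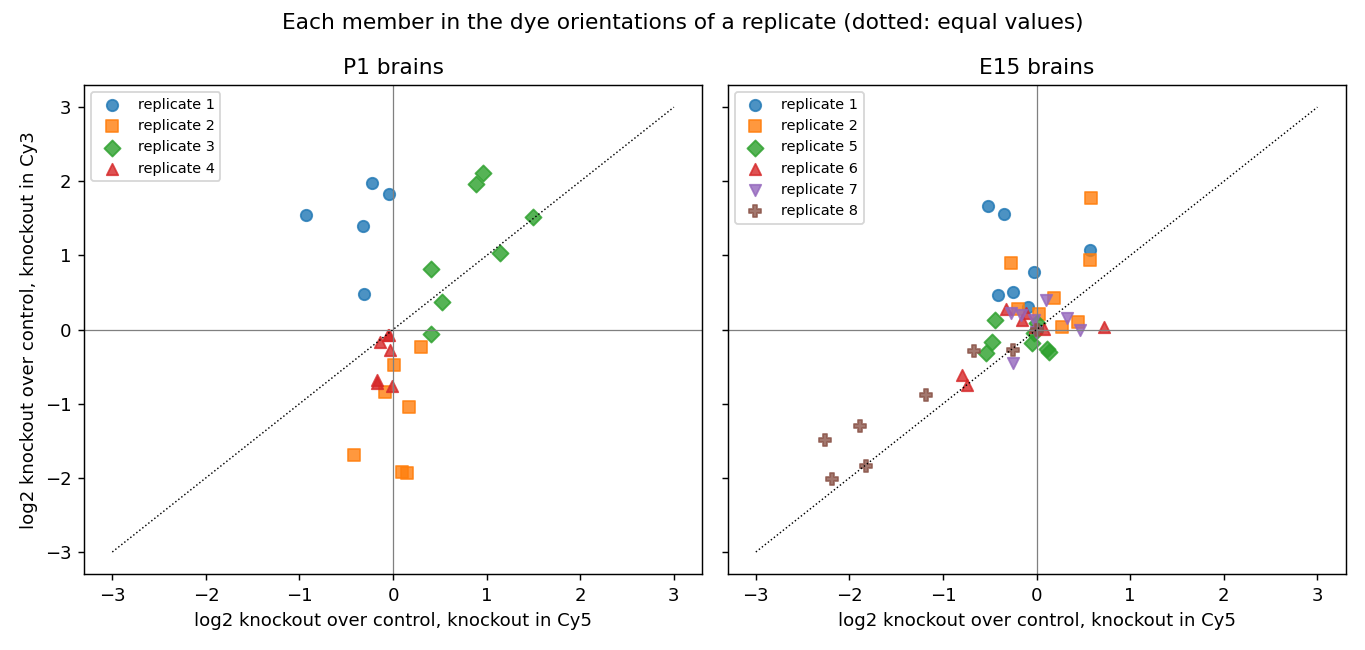
Log2 knockout over control of each gene with the knockout in Cy5 (horizontal axis) and in Cy3 (vertical axis), 1 symbol per replicate; the dotted line marks equal values. P1 replicate 1 lies left of 0 and above 0 for 5 genes, and E15 replicate 8 lies near the line at the lower left.

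Beyond the comparisons of groups, 5 of the genes varied together from animal to animal. After each gene's level was centred on the mean of its age and genotype, Pearson's r between pairs of Nkx2-1, Lhx6, Lhx8, Dlx1 and Dlx2 was 0.79 to 0.94 over the 22 animals, highest for Dlx1 with Nkx2-1. Among the 8 P1 animals it was 0.86 to 0.98, among the 14 E15 animals 0.69 to 0.93, among the 12 knockouts 0.80 to 0.96 and among the 10 controls 0.61 to 0.93. Without E15 knockouts 4 and 8 and E15 control 1 it was 0.65 to 0.92. The 12 knockouts are numbered by the labels; the P1 controls enter as control averages. Animals on an array share its spots and hybridisation, so these correlations describe the libraries and carry no test.

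Dlx5 followed the others less closely, with r of 0.25 to 0.59 to those 5 genes over all animals and -0.07 to 0.29 over the P1 animals. Dlx6 had r of 0.51 to 0.63 with them and 0.19 with Dlx5, although Dlx5 and Dlx6 are neighbours, while the neighbours Dlx1 and Dlx2 had 0.85. Sp8 had 0.65 to 0.72 with the 5 genes, over the 16 animals not lost to marked spots; the P1 animals among them are each alone in their group and so centred at 0.

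The mean centred level of the measured members was highest in E15 knockout 2 (0.73) and P1 knockouts 3 and 1 (0.63 and 0.56), and lowest in E15 knockouts 4 and 8 (-0.80 and -0.76), P1 knockout 4 (-0.69) and E15 control 1 (-0.49). Among 14191 other named genes well above background in at least 90% of channels, those most like this mean included Neurod6 (r = 0.90), Sla (0.88), Gipr (0.87), Fezf2 (0.87), Zbtb18 (0.87), Tiam2 (0.85), Sh3rf3 (0.84), Mpped1 (0.84) and 9130024F11Rik (0.83), where the median of all those genes was 0.01. Without E15 knockouts 4 and 8 and E15 control 1 these 9 genes had r of 0.74 to 0.88. Neurod6 and Fezf2 mark excitatory neurons of the cortex. In control brains none of these 9 passed the age test (limma, adjusted p 0.11 to 0.982); Neurod6, for example, changed by -0.41 with an adjusted p of 0.536.

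**Figure D5:**
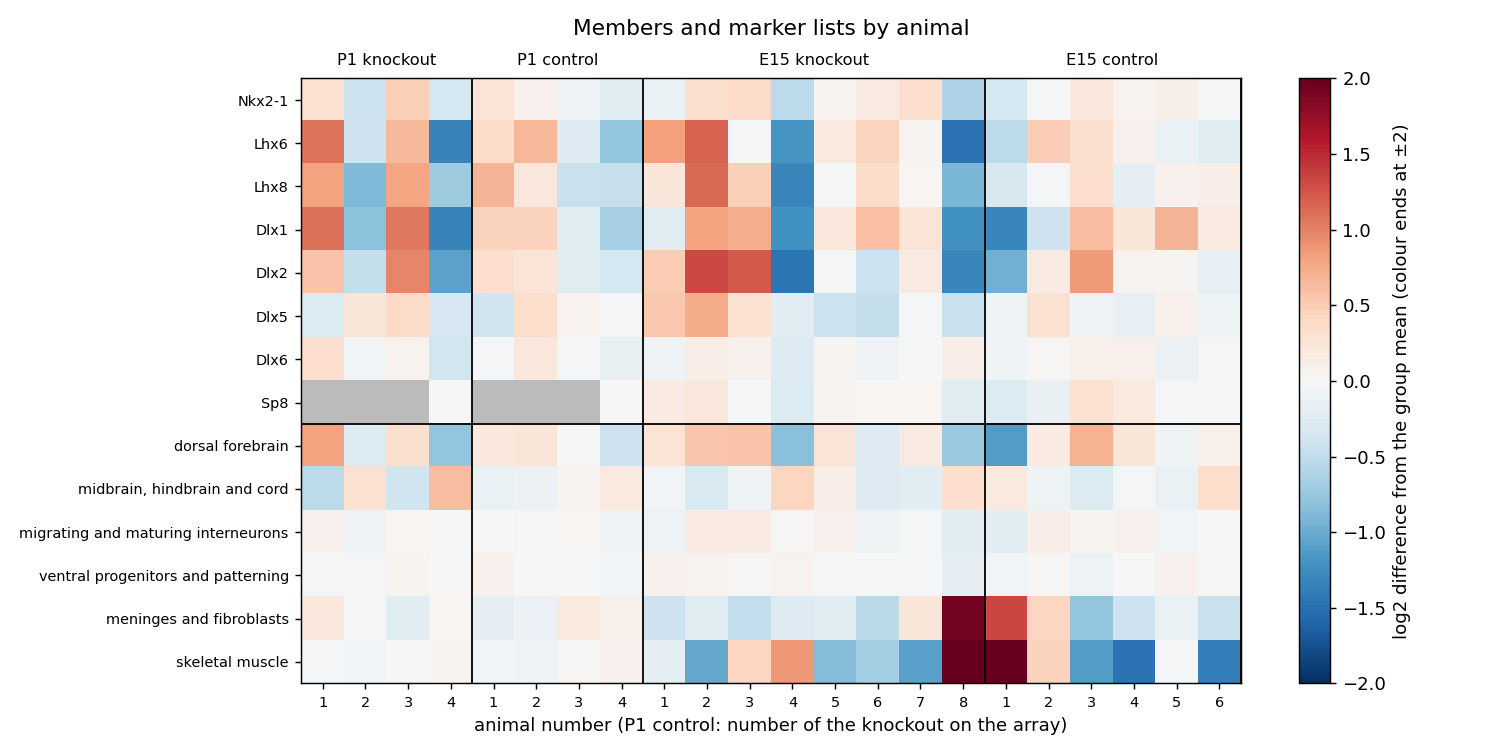
Log2 difference of each animal from the mean of its group for the 8 genes (upper rows) and for the mean of 6 marker lists (lower rows); columns are animals (for P1 controls, control averages), red is higher, blue lower, grey not measured, and colours end at ±2. E15 knockouts 4 and 8, E15 control 1 and P1 knockouts 2 and 4 are low for Lhx6, Lhx8, Dlx1 and Dlx2 and for the dorsal forebrain list.

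The dorsal forebrain list moved with the members. All 13 of its genes, Fezf2 among them, had a positive r with the members' mean (median 0.75), while the midbrain, hindbrain and cord list had a median of -0.58 with 4 of 21 genes above 0. Without E15 knockouts 4 and 8 and E15 control 1, the medians were 0.67 with 12 of 13 genes above 0 and -0.64 with 3 of 21 above 0. The lists of the ventral lineage followed the members less closely. Migrating and maturing interneurons had a median r of 0.26 with 17 of 24 genes above 0, and 0.15 without those brains. Ventral progenitors and patterning had 0.04 with 7 of 12 above 0, and 0.04 without those brains. At P1 the median log2 knockout over control of the dorsal forebrain list was 0.61, -0.34, 0.35 and -0.16 in replicates 1 to 4, that of the members 0.43, -0.46, 1.09 and -0.27, and that of the midbrain, hindbrain and cord list -0.30, 0.24, -0.20 and 0.21. The first and second sets share their sign in every P1 replicate and the third has the opposite sign in each; the part of unequal brain regions in the members' ratios was not tested. At E15 replicate 8 the medians were -1.31 for the members, -1.54 for the dorsal forebrain list, 2.49 for meninges and fibroblasts and 3.54 for skeletal muscle. In replicate 4 they were -0.15, 0.51, -1.86 and -3.50, and there the brain rich in muscle was the control. In replicate 1, where that brain was the control on 1 of the arrays, they were 0.25, 0.52, -1.20 and -1.34. The part of surrounding tissue in these ratios was not tested either.

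Other genes of the ventral lineage did not follow one direction with age. In control brains 6 of the 24 genes of migrating and maturing interneurons rose and 6 fell (median 0.05, and -0.07 over all features), where 15.5% of all features rose and 22.7% fell. The count that fell is near its share over all features and the count that rose is above its share, a difference that was not tested. Sst, the interneuron peptide somatostatin, rose by 1.09 (adjusted p = 0.000123), Gad1, which makes GABA, rose by 1.12 (adjusted p = 0.000183), and Calb1, a calcium buffer, rose by 1.10 (adjusted p = 0.00149), while Nr2f2, a nuclear receptor of caudal eminence interneurons, fell by 1.61 (adjusted p = 3.69e-05). In the knockouts the same 4 genes were called in the same directions, and 7 genes of the list rose and 5 fell. There 13.1% of all features rose and 15.5% fell. In the comparison of control brains Lhx6, Lhx8 and Dlx2 fell while Sst and Gad1 rose, and the calls of Lhx6 and Lhx8 were lost in some settings. The rises were not particular to interneuron genes. Of the 5 general neuron markers, 3 were called higher in the same comparison (Snap25 by 1.26, Stmn2 by 1.16 and Dcx by 0.58) and 0 lower.

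Of the 12 genes of ventral progenitors and patterning, 3 rose and 3 fell in controls, and the same shares of all features, 15.5% higher and 22.7% lower, apply to this and the following lists. Olig1, used in progenitors and oligodendrocyte precursors, rose by 1.25 (adjusted p = 0.000208), and Isl1, of striatal and cholinergic neurons, fell by 1.13 (adjusted p = 0.00623). Gli1 (2.12) and Nkx6-2 (3.16) were called higher too, and like Sp8 each had 1 P1 control value. Among 15 genes of striatal projection neurons 2 rose and 3 fell, with Ppp1r1b, the dopamine signalling protein DARPP-32, higher by 1.88 (adjusted p = 0.000286, from 1 P1 control value) and Zfp503 lower by 1.43 (adjusted p = 9.74e-05). The 13 dorsal forebrain genes had a median of -0.55 with 1 higher and 2 lower. The 1 called higher was Emx2 (1.72), which like Sp8 had 1 P1 control value. Of the 12 genes of meninges and fibroblasts, 6 were lower and 0 higher (median -0.91), and the 8 skeletal muscle genes had a median of -1.08 with 0 called. The 16 tested genes of face, bone and cartilage had a median of -0.35 with 1 higher and 2 lower. The part of these tissues in the falls of the members, Dlx5 included, was not tested.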

How the data were processed

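Whole-brain RNA was measured on Agilent 2-colour arrays. Per the file headers, the deposited intensity values of each spot and its background came from Agilent Feature Extraction, version 8.1.1.1 at E15 and 8.5.1.1 at P1, and the deposited log10 ratios set Cy5 over Cy3. The authors' series table of log10 ratios lay within 0.005 of the scanner's own. Direction was taken from the dyes in the labels.

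In R 4.3.3 with limma 3.58.1, intensities were corrected by normexp (offset 50), loess-normalized within arrays and Aquantile-scaled between arrays, spots marked as outliers were set to missing, and arrays of 1 animal or replicate were averaged. The labels do not number the P1 controls, so their channels were averaged by the number of the knockout on the array. E15 replicates 3 and 4, with 1 array each, had the mean dye effect of the others subtracted. The fits worked on log2 values computed from the deposited intensities. Each gene was represented by its brightest probe; features well above background in 50% of channels of an age were tested by lmFit and eBayes with Benjamini-Hochberg adjustment over all of them, with a block for shared E15 controls. Probe names came from RefSeq (22161 through an accession, 5106 through a symbol, 4391 through a synonym), and 7544 probes had no gene name. The labels do not say whether the animals shared litters, and p-values measure only the spread between these samples. The number of arrays limits the precision. In simulated data 84% of features changed by 1 log2 unit were recovered in the control age comparison, 82% in the P1 ratios and 96% in the E15 ratios. Those features were picked at random, each with independent noise of its own spread, so these shares do not describe the members. Among members the SD of the P1 ratios was 1.19 for Dlx1, 0.93 for Dlx2 and 0.97 for both Lhx6 and Lhx8. It was 0.44 for Nkx2-1, 0.31 for Dlx6 and 0.26 for Dlx5.

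All 9 members are reported; from other lists at most the 4 called genes with the lowest p in the control age comparison are named, and the 10 genes most like the members' mean; some of these are not reported here. The members and all lists were chosen with earlier results of these data known. Replicate numbers 1 to 4 occur at both ages, but deviations of same-numbered knockouts correlated at only -0.17, 0.14, 0.11 and 0.07, so the numbers do not pair the animals. Alternatives covered background correction, marked spots, filters, probes, scaling, dye, the averaging of P1 controls, scan day, blocks, the deposited ratios and leaving out each animal.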

Additional observations from a re-analysis of the deposited data

Results flagged for a closer look

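In E15 replicate 8, log2 knockout over control stood apart from the other 7 E15 replicates for 2 genes by Dixon's test of the gap to the nearest value. Dlx1 was -1.87 in replicate 8, against a next lowest value of -0.02, and Nkx2-1 was -1.03, against a next lowest value of -0.08. Of 45 groups of 4 to 10 animals or replicates examined for the 8 genes, these 2 met the criterion (4.44%), and chance meets it in about 1 in 20 groups. In the same replicate the median log2 knockout over control was 3.54 for the skeletal muscle list and 2.49 for the meninges and fibroblast list; their part in these values was not tested.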

How the results depend on the processing

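In control brains no age change turned its sign under the alternatives that gave it a value; Sp8 had none without P1 control average 4 or in the Cy5 channels alone. The number of members called lower was 4 to 6 and the number called higher 1 to 2 when each animal was left out, with 7491 to 10117 features called. In the main fits 38.2% of features were called in controls and 28.5% in knockouts. Counts of members are to be read beside such shares. With Cy3 channels only 1 member was called higher, and with Cy5 channels only 1 member was called higher and 5551 features were called in all; Lhx8 lost its call in Cy3 and Lhx6 in Cy5. With the P1 control channels paired by likeness 4 members were lower and 2 higher, and Lhx6 lost its call. Among knockouts, leaving out each animal gave 0 to 1 members lower, 1 to 2 higher and 4991 to 7881 features called; processed signals gave 2 lower, leaving out E15 knockouts 4 and 8 gave 2 lower, and scan day as a random block left 4420 features. The settings by dye, by likeness of P1 controls, by dye orientation, without E15 controls 1 and 2 and without E15 brains 4 and 8 were chosen after seeing the data. E15 controls 1 and 2 were the lowest E15 controls for Dlx1, and E15 knockouts 4 and 8 the lowest E15 knockouts for Dlx2 and Nkx2-1. Leaving them out therefore enlarges those falls by construction. With a replicate block, although the numbers pair no animals, 1 member was higher (Sp8 gave no value) and 2 were lower (Dlx2 -1.62, Dlx5 -0.82) in knockouts, and the difference of effects called 0 features, with Dlx1 at -0.60, Dlx2 at -0.16 and Nkx2-1 at -0.14.

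No setting called a member in the knockout over control comparisons, and several signs turned. At P1, Dlx6 was -0.00974 with outlier spots kept and -0.27 with the knockout in Cy3, and Nkx2-1 was -0.0104 with the knockout in Cy5. Leaving out each P1 replicate gave -0.21 to 0.65 for Dlx1, -0.11 to 0.54 for Dlx2, -0.0735 to 0.147 for Dlx6, -0.13 to 0.53 for Lhx6, -0.22 to 0.56 for Lhx8 and -0.15 to 0.21 for Nkx2-1. At E15, Sp8 was -0.0182 with processed signals and -0.0181 with the deposited table, and each of these settings called 1 feature. Without the brains with 1 array, Dlx1 was -0.0134 and Sp8 -0.0283. Scan day 3 alone gave 0.46 for Dlx2 and 0.18 for Nkx2-1, and scan days 1 and 2 gave -0.47 for Dlx1, -0.00431 for Dlx6 and -0.14 for Sp8. Without E15 replicates 4 and 8, Dlx2 was 0.16, Lhx6 0.18, Lhx8 0.10 and Nkx2-1 0.11. Leaving out each E15 replicate gave -0.33 to 0.13 for Dlx2, -0.00482 to 0.0262 for Dlx6, -0.33 to 0.0565 for Lhx6, -0.10 to 0.10 for Nkx2-1 and -0.0299 to 0.0881 for Sp8, with 0 to 1 features called.

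The difference of effects called 0 features with processed signals, outlier spots kept or the deposited table, 164 with no filter, 2 with the strict filter and 36 to 153 when each replicate was left out. In it Dlx1 was -0.16 with processed signals and with the deposited table, and with outlier spots kept Dlx6 was -0.0186 and Sp8 0.15. Leaving out each replicate gave -0.38 to 0.49 for Dlx1, -0.0825 to 0.138 for Dlx6 and -0.11 to 0.25 for Nkx2-1. The cause was not tested. P1 arrays were scanned on 1 day, so no scan day block was run for P1. Low signal over background limits Dlx6, and at P1 Lhx8 and Nkx2-1.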
